A study of Homo sapiens with 12 samples.

Results

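IRAK4 knockout THP-1 cells were compared with wild-type THP-1 cells that had not received the study's drug. The comparison used 6 of the 12 libraries in the series, chosen by their titles: 3 of knockout cells and 3 of wild-type cells, each kept in DMSO, the solvent, for 12 h. The other 6 libraries are of the same cells given 50 nM CC-885, a cereblon-binding compound, for the same time. They gave a second measurement of the genotype difference, and they entered the same fit, so that they share in the estimate of spread behind the DMSO calls. THP-1 is a human cell line of acute monocytic leukaemia, and polyA RNA was sequenced in bulk. Knockout cells were electroporated with Cas9 and a guide RNA against IRAK4 and grown from single cells. Wild-type cells went through electroporation and single-cell cloning without that guide. One text of the series can be read as giving them Cas9 and another as withholding it. Clones were chosen by PCR and Sanger sequencing of the target. The number of clones behind each genotype, and whether replicates were separate cultures, is not given in the sources used here. A difference between clones and an effect of losing IRAK4 therefore cannot be told apart, and p-values measure only the spread between these libraries. No ligand of the receptor pathway is named for any group.

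IRAK4 is a serine and threonine kinase that binds the adaptor MYD88 below Toll-like and interleukin-1 receptors. In that complex, the myddosome, it activates IRAK1 and IRAK2, and TRAF6 and ubiquitin chains then pass the signal to the TAK1 and IKK kinases, which release NF-kB and switch on MAP kinases. In monocytes the pathway answers bacterial products with cytokines, and it feeds an interferon response through IRF factors. IRAK3 and TOLLIP restrain it.

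IRAK4 transcript was lower in knockout in every library. It stood at 53.9, 50.9 and 51.6 CPM (CPM, read counts scaled to library size with TMM factors) in wild type and at 7.28, 8.72 and 8.78 CPM in knockout, a log2 fold change of -2.66 ± 0.10 (± SE, adjusted p = 1.7e-11). The highest knockout library was below the lowest wild-type library, and 15.8% of the wild-type mean remained. The gene lies at chr12:43758951-43789541 in RefSeq GRCh38.p14. Reads were counted over the whole gene and the cut site is not given in the sources used here, so the level does not show whether a protein was made.

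The 6 libraries held 46903984 to 55123047 counts, and the first principal component of the 6 held 80% of the variance and parted the genotypes. Library names begin with 51 or 52, a prefix the labels do not explain. Wild-type replicate 1 and knockout replicates 1 and 2 carry 51, and wild-type replicates 2 and 3 and knockout replicate 3 carry 52. A fit of the 51 libraries alone thus has 1 wild-type DMSO library, and of the 52 libraries alone 1 knockout DMSO library. Calls made or lost in those fits rest on a single library of a group. Of 12 markers of monocytic leukaemia, 6 were higher in knockout and 0 lower, and their summed level went from 3206 to 3288 CPM up to 3809 to 4803 CPM (library-total CPM), led by the lysozyme gene LYZ. Markers of T and NK cells summed to 116 to 117 CPM in wild-type libraries and 31.9 to 34.4 CPM in knockout. NCAM1 carried that fall, with means of 107 and 12.4 CPM, while the other 4 of 5 tested markers were higher, and CD3E, CD3G, LCK and KLRD1 were at 0. B cell markers went from 10.5 to 10.8 CPM down to 4.55 to 5.16 CPM, of which PAX5 made up means of 6.19 and 0.480 CPM. Of 6 tested B cell markers, 2 were higher and 2 lower, and MS4A1 and VPREB1 were at 0. Erythroid, mast cell and dendritic cell markers summed to 11.1 to 39.7 CPM in wild-type libraries and 14.3 to 54.0 CPM in knockout. The part of any other cell type in the differences below was not tested, and in bulk RNA fewer cells of a type and less RNA per cell cannot be told apart.

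Across 16010 genes tested, 3415 (21.3%) were higher in knockout and 4543 (28.4%) were lower at an adjusted p under 0.05 (edgeR quasi-likelihood test, Benjamini-Hochberg over all genes), so that 49.7% differed in 1 direction or the other. Changes of at least 2-fold made up 1131 higher (7.06%) and 1069 lower (6.68%) genes, and at least 8-fold 108 and 129. The 3 knockout values lay wholly above or below the 3 wild-type values for 59.8% of genes. The 6 DMSO libraries fitted alone gave 4193 higher and 4069 lower genes, and the fit without wild-type CC-885 replicate 3 gave 3877 and 5331. The median gene moved by -0.06 on the log2 scale. With upper-quartile factors the median shifted up by 0.12 and 60.7% of called genes were higher, against 42.9% with TMM factors, so each list below is to be read against the gene median rather than against 0. The counts of list members below stand beside these shares, and a list near 21.3% higher and 28.4% lower members is near the background.

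The lower genes gathered on 3 chromosomes. On chromosome 10, 464 of 560 tested genes were lower and 19 higher, with a median of -0.99. On chromosome 5, 330 of 680 were lower (median -0.29), and on chromosome 12, 320 of 755 (median -0.17). The medians of the other chromosomes ran from -0.12 to 0.04. In windows of 10 Mb (RefSeq gene starts, GRCh38.p14), 25 of 292 had a median of -0.5 or lower, and all 25 lay on chromosomes 10 (14 windows), 12 (7) and 5 (4). Chromosome 10 was low along its whole length, with window medians from -1.17 to -0.87.

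On chromosome 5 the low windows were those before 50 Mb, with medians from -1.33 to -1.01, and every later window stood at -0.43 or above. In the first of them the lipid enzyme LPCAT1 read 218, 230.1 and 233 CPM in wild-type libraries and 51.8, 53.9 and 54.6 CPM in knockout (-2.09 ± 0.07, adjusted p = 7.5e-12), and the WNT pathway antagonist NKD2 read 111, 95.2 and 94.7 against 19.2, 18.2 and 20.2 CPM (-2.39 ± 0.10, 3.5e-11). On chromosome 12 the windows from 20 to 40 Mb stood at -1.54 and -1.36, and those from 60 to 110 Mb at -1.09 to -0.62. MRPS35, a mitochondrial ribosomal protein, lies in the first of these and read 91.8, 103 and 96.4 CPM in wild-type libraries and 24, 25.2 and 23.9 CPM in knockout (-1.99 ± 0.07, 1.8e-11). The window that holds IRAK4, from 40 to 50 Mb, had a median of -0.23, with 10 of 64 genes higher and 30 lower. Its quartiles were -1.18 and 0.05, so its genes were split. The next window, from 50 to 60 Mb, stood at -0.01. No window was as far above 0 as the low windows were below it, the highest being 0.33. The groups did not overlap for any of these 3 genes.

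**Figure D1:**
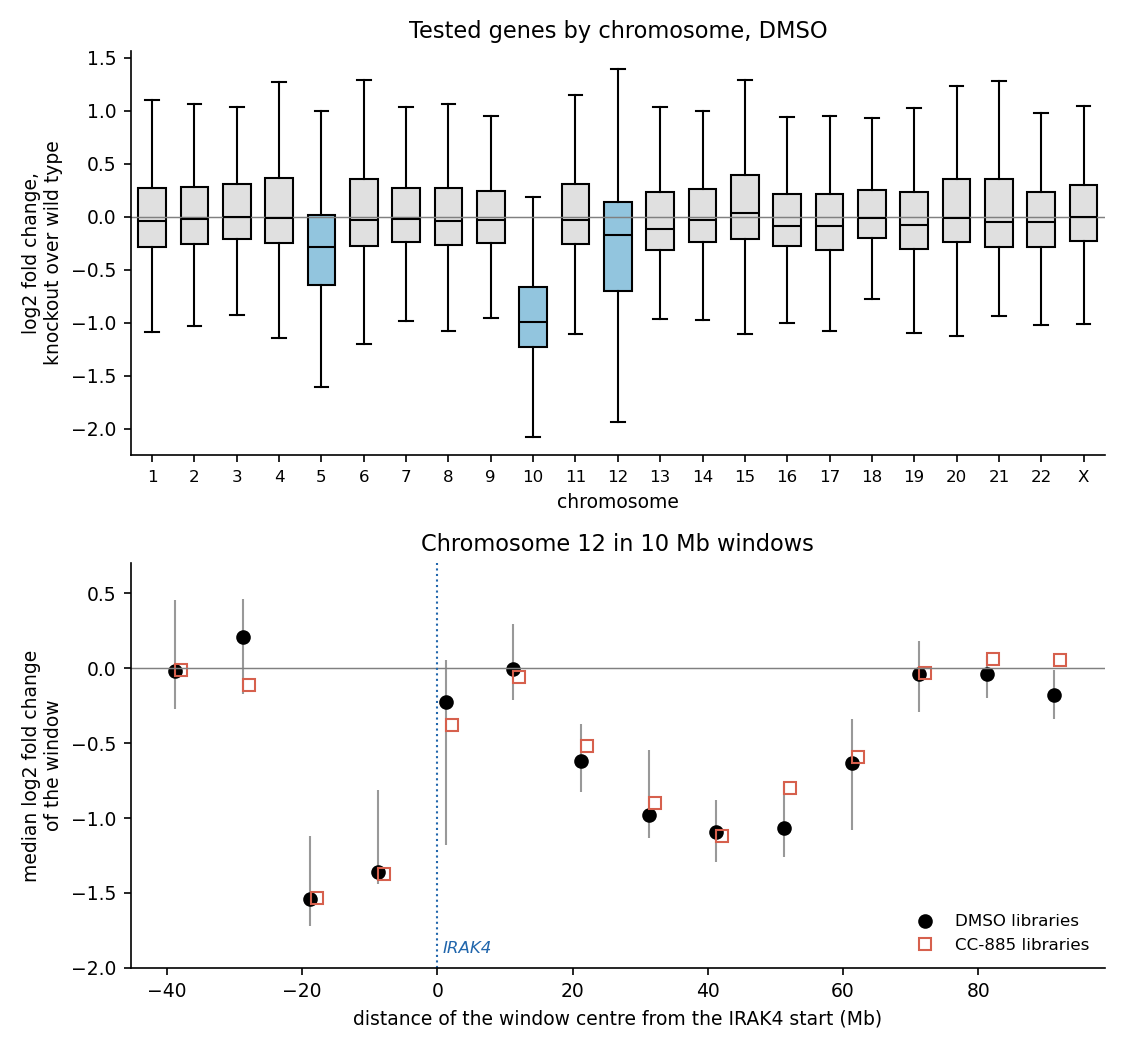
Upper panel, log2 fold change of every tested gene (knockout over wild type, DMSO) by chromosome, as boxes of the quartiles with points beyond the whiskers not drawn; chromosomes 5, 10 and 12 are blue. Lower panel, median (dots) and quartiles (lines) of the 10 Mb windows of chromosome 12 by distance from the IRAK4 start, with the CC-885 libraries as open squares. Chromosome 10 lies near -0.99 as a body. On chromosome 12 the windows just before that of IRAK4 are low, and the IRAK4 window is split, with quartiles of -1.18 and 0.05. Low windows return beyond a further window at -0.01. Windows of this width do not place the end of the low stretch.

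Outside chromosomes 5, 10 and 12, 22.7% of 14015 genes were higher and 24.5% lower, and 1054 rose but only 549 fell at least 2-fold. On them, 1114 of 1995 genes were lower. Several pathway genes lie there, so list counts are also given without these chromosomes where that matters.

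Among the receptors, 6 of 16 tested genes were higher in knockout and 1 was lower, with a median of 0.26. TLR4, the receptor for bacterial lipopolysaccharide, stood at 25.1, 21 and 21.6 CPM in wild-type libraries and 43.3, 48.3 and 45.6 CPM in knockout (1.02 ± 0.08, adjusted p = 3.1e-08). Its co-receptor CD14 stood at 1.3, 1.11 and 1.17 CPM against 3.14, 2.48 and 3.06 CPM (1.27 ± 0.19, 4.8e-05). All knockout libraries were above all wild-type libraries for both genes.

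The flagellin receptor TLR5 (0.96 ± 0.24; 1.56 in the 51 libraries alone), the lipopeptide receptor subunit TLR1 (0.98 ± 0.12) and the interleukin-1 receptor IL1R1 (1.45 ± 0.13) were also higher. IL1R1 read 1.58, 1.73 and 1.66 CPM in wild-type libraries and 4.58, 4.48 and 4.53 CPM in knockout, a nearly constant level within each group. CD180, a TLR4 relative, rose too (1.06 ± 0.28, adjusted p = 0.0084), but its knockout values of 13.2, 15.1 and 7.47 CPM overlapped the wild-type values of 8.34, 4.33 and 4.51 CPM, and the call was lost with the DMSO libraries alone. TLR2, the most abundant receptor of the list, did not pass the test: it read 97.2, 107 and 100.4 CPM in wild-type libraries and 92.3, 105 and 93.1 CPM in knockout (-0.07 ± 0.07, 0.43). TLR6, TLR7, TLR8, TLR9, SIGIRR, IL1RAP, IL18RAP and LY96 did not pass it either, with log2 fold changes from -0.12 to 0.49. IL1RAP was called higher in other settings, at 0.26 with the DMSO libraries alone and 0.32 with upper-quartile factors, and TLR6 with upper-quartile factors. The double-stranded RNA receptor TLR3 passed at 0, 13 and 10 counts in wild type against 0, 0 and 2 in knockout (adjusted p = 0.028), counts too few for a fold, and it lost the call without wild-type replicate 2 or 3 or without knockout replicate 1 or 2.

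Of 8 adaptors and IRAK kinases, 4 were lower, IRAK4 among them, and 1 was higher. IRAK2, the kinase that sustains the signal, rose from 2.03, 1.53 and 1.66 CPM to 3.98, 3.83 and 3.65 CPM (1.14 ± 0.11, adjusted p = 3.3e-07). IRAK1, at 346, 366 and 359.7 CPM in wild-type libraries and 373, 356 and 353 CPM in knockout, had overlapping groups and a difference of 0.01 ± 0.05 (0.85). IRAK3, which restrains the pathway and lies in a low segment of chromosome 12, read 189.5, 202 and 193 CPM in wild-type libraries and 137, 148 and 138 CPM in knockout (-0.46 ± 0.06, 1.8e-05). The adaptor MYD88 was slightly lower (-0.19 ± 0.06, 0.014), a call that was lost without knockout replicate 3, and TICAM1, the adaptor of TLR3 and TLR4, was lower by a like amount (-0.24 ± 0.07, 0.0094). Both also fell short of a call with upper-quartile factors and with the DMSO libraries alone. The bridging adaptor TIRAP stood at 0.22 ± 0.09 without a call (0.055), but was called at 0.34 with upper-quartile factors.

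Below the receptors, 8 of 19 ubiquitin and kinase relays were lower and 3 higher, or 4 and 3 of 15 outside chromosomes 5, 10 and 12. The largest falls were of genes on the low chromosomes. UBE2N, the E2 enzyme of the ubiquitin chains built by TRAF6, read 136, 140.4 and 138 CPM in wild-type libraries and 60.3, 63.4 and 61.8 CPM in knockout (-1.16 ± 0.08, adjusted p = 5.5e-09; chromosome 12). CHUK, the IKK-alpha kinase on chromosome 10, read 44.9, 47.9 and 49.3 CPM in wild-type libraries and 19.1, 21.3 and 21.5 CPM in knockout (-1.20 ± 0.11, 4.2e-07). The MAP kinase kinase kinase MAP3K8, also on chromosome 10, stood at -0.74 ± 0.09. The groups were apart by far more than their spread for all 3.

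Elsewhere in the genome the falls were smaller. The ubiquitin ligases PELI3 (-0.60 ± 0.11) and PELI1 (-0.48 ± 0.10) and the IKK scaffold IKBKG (-0.47 ± 0.12) were lower, but PELI3 was not called in the 51 libraries alone and IKBKG not in the 52 libraries alone. TRAF6 was lower by less (-0.19 ± 0.06, adjusted p = 0.018) and was not called without wild-type replicate 2 or knockout replicate 1, with upper-quartile factors or with the DMSO libraries alone. TOLLIP (0.29 ± 0.05) and the deubiquitinating brake TNFAIP3 (0.35 ± 0.09) were higher, the latter without a call in the 51 libraries alone or with a block by library-name number. MAP3K7, the TAK1 kinase, its partners TAB1, TAB2 and TAB3, and IKBKB were not called, at -0.10 to 0.14. MAP3K7 was called higher in other settings, at 0.18 with the DMSO libraries alone and 0.24 with upper-quartile factors, which also called TAB1 and IKBKB.

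**Figure D2:**
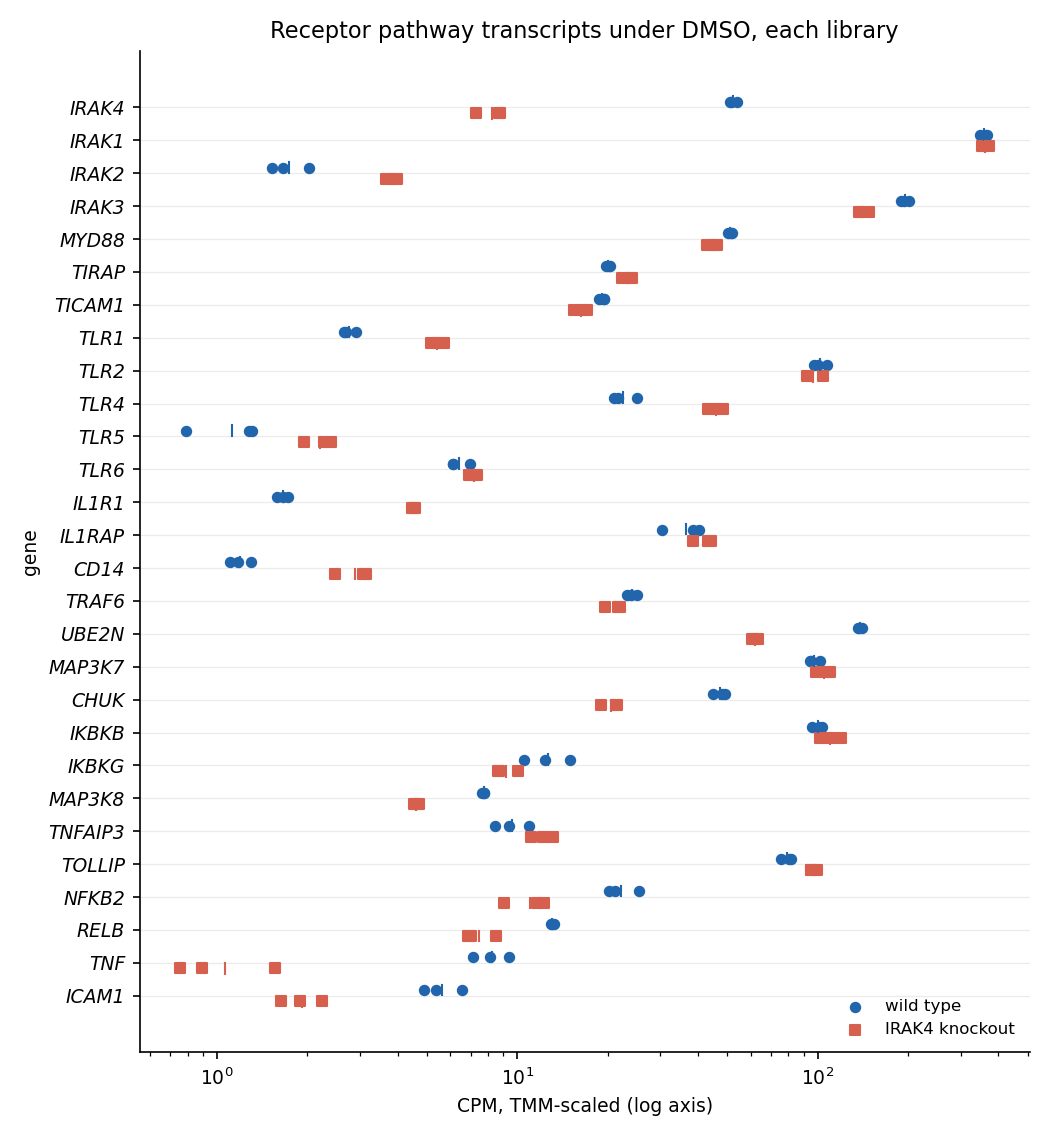
Level of 28 genes of the receptor pathway in each DMSO library (CPM on a log axis; blue circles wild type, red squares knockout, bars group means). IRAK4, TNF and ICAM1 are lower in every knockout library, and TLR4, CD14, IL1R1 and IRAK2 are higher in every one.

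NF-kB subunits and inhibitors were lower or did not pass: 7 of 10 were lower and 0 higher, with a median of -0.43 against -0.06 for all genes. RELB, a subunit of the non-canonical branch, read 13, 13.3 and 13 CPM in wild-type libraries and 8.49, 7.01 and 6.87 CPM in knockout (-0.81 ± 0.08, adjusted p = 9.5e-07). The atypical inhibitor BCL3 fell from 5.86, 4.95 and 5.36 CPM to 3.08, 2.34 and 2.34 CPM (-1.06 ± 0.13, 4.9e-06), and NFKBIB stood at -0.57 ± 0.06. NFKB2, on chromosome 10, stood at -1.01 ± 0.11. The canonical subunits RELA (-0.09 ± 0.05, 0.18) and NFKB1 (-0.06 ± 0.06, 0.38) did not pass the test. Without chromosomes 5, 10 and 12, 6 of 9 were lower.

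Inflammatory outputs of NF-kB went both ways, with 7 of 26 higher and 8 lower. The cytokine TNF fell furthest among those above 5 CPM. It read 9.38, 8.14 and 7.14 CPM in wild-type libraries and 1.56, 0.892 and 0.755 CPM in knockout (-2.95 ± 0.19, adjusted p = 1.1e-08). The adhesion molecule ICAM1 read 5.37, 4.91 and 6.55 CPM against 1.64, 2.24 and 1.89 CPM (-1.54 ± 0.16, 9e-07). For both, the highest knockout library was less than 50% of the lowest wild-type library. TNFAIP2 (-0.64 ± 0.10) and the urokinase PLAU (-0.89 ± 0.09; chromosome 10) were lower as well. None of the 7 higher genes reached 5 CPM in either group.

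Genes that answer to MAP kinase activity and feed back on it were also split, with 4 of 18 higher and 9 lower, or 3 and 5 of 12 outside the low chromosomes. The transcription factor EGR1 read 14.4, 10.2 and 13.2 CPM in wild-type libraries and 5.14, 5.23 and 5.58 CPM in knockout (-1.25 ± 0.10, adjusted p = 5e-08). It lies on chromosome 5, outside the low windows. The phosphatases DUSP5 (-1.30 ± 0.11; chromosome 10), DUSP6 (-0.92 ± 0.09; chromosome 12) and DUSP2 (-0.60 ± 0.09; chromosome 2) were lower. The phosphatase DUSP4 (0.71 ± 0.12), the RAS pathway inhibitor SPRY4 (1.30 ± 0.20) and cyclin D1, CCND1 (1.06 ± 0.11), were higher. CCND1 stood at 7.38, 9.3 and 10.3 CPM in wild-type libraries and 18.3, 17.8 and 20.3 CPM in knockout, without overlap. Of 14 inflammasome genes, 3 were higher and 3 lower, among them IL18 (-0.49 ± 0.09) and CASP1 (-0.32 ± 0.08), which processes it.

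Interferon-stimulated genes were lower almost throughout. Interferons act through transcription factors that bind a short repeat, the interferon-stimulated response element, in the promoters of antiviral genes. Of 41 effectors, 37 were lower in knockout, 23 of them at least 2-fold, and 2 were higher, with a median of -1.11. Outside chromosomes 5, 10 and 12, which hold the IFIT genes (10) and the OAS genes (12), 29 of 33 were lower. The OAS genes are not in the low windows of chromosome 12. The summed level of the 41 was 1154, 1410 and 1342 CPM in wild-type libraries and 700.1, 722 and 720 CPM in knockout.

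Promoter stretches are shown for the 4 effectors with the largest falls above 5 CPM, and for HERC5, which rose. Each holds 120 bases before the gene's most upstream listed start (RefSeq, GRCh38.p14), printed 5′ to 3′ on the gene's strand. Capitals mark the core of the element, a pair of GAAA repeats 2 bases apart, read on either strand (TTTC on the other).
IFI27 (chr14:94110616-94110735, plus strand): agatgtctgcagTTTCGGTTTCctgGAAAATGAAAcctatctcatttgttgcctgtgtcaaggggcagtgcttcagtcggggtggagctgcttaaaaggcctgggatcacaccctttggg
LGALS3BP (chr17:78979924-78980043, minus strand): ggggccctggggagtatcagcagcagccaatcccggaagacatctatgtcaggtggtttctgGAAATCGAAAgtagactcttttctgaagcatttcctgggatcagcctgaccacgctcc
IFI44L (chr1:78620328-78620447, plus strand): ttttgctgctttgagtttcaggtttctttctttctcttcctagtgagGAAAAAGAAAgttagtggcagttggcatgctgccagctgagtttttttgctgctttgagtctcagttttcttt
IFIT1 (chr10:89392503-89392622, plus strand): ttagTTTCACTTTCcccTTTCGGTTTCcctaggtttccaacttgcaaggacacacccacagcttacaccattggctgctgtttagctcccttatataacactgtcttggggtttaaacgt
HERC5 (chr4:88456999-88457118, plus strand): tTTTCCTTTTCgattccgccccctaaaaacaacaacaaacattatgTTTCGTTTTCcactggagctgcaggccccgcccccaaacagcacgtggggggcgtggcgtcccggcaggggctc

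The core was in at least 1 promoter, within 250 bases before the start, of 24 of the 34 effectors matched in the RefSeq table (70.6%), and of 22 of the 32 matched effectors that were lower. Of 11658 tested genes matched there, 3.52% held it, and of 35116 promoters taken singly, 3.02%. A match says only that these letters are present. HERC5 also holds them, 2 of them in the stretch shown, as do IFI27 and IFIT1. OAS1 and IFI35 were lower with no match in this window.

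IFI27, a small mitochondrial protein used as a marker of interferon exposure, read 7.5, 20.4 and 20.1 CPM in wild-type libraries and 0.14, 0.175 and 0.199 CPM in knockout (-6.53 ± 0.78, adjusted p = 9.3e-05). The secreted lectin ligand LGALS3BP read 5.32, 11.3 and 10.4 CPM against 0.34, 0.472 and 0.655 CPM (-4.20 ± 0.35, 6.4e-07). IFIT1, which binds viral RNA caps, read 4.81, 7.17 and 6.26 CPM against 0.600, 0.577 and 0.794 CPM (-3.21 ± 0.58, 0.0013), and IFI44L stood at -4.12 ± 0.61 (0.00033). The sialic acid lectin SIGLEC1, a monocyte gene that interferon raises, read 13.5, 34 and 34.6 CPM in wild-type libraries and 1.00, 1.35 and 1.25 CPM in knockout (-4.51 ± 0.42, 1.4e-05).

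Every knockout library was below every wild-type library for these 5 genes. Within wild type, replicate 1, the only one with a 51 prefix, was the lowest for all 5. With libraries of the 51 prefix alone the median of the 41 effectors was -0.92, and with those of the 52 prefix alone it was -1.07. In the 51 libraries IFI27 stood at -5.54, IFI44L at -2.97 and SIGLEC1 at -3.51. The prefix as a term in the fit left 37 lower.

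A few members did not follow. MX2, which blocks retroviral import into the nucleus, rose from 17.9, 24.3 and 21.5 CPM to 37.2, 39.2 and 36 CPM (0.82 ± 0.17, adjusted p = 0.0017). The ISG15 ligase HERC5 read 6.71, 7.15 and 6.42 CPM in wild-type libraries and 8.27, 8.57 and 8.84 CPM in knockout (0.34 ± 0.09, 0.0057), a call not made in the 51 libraries alone or with a block by library-name number. IFITM2 (0.08 ± 0.07) and SAMD9 (-0.29 ± 0.29) did not pass the test, though IFITM2 was called higher with upper-quartile factors and SAMD9 lower with the DMSO libraries alone. Among 25 genes that sense or relay interferon, 8 were lower and 6 higher. The regulators IRF7 (26, 32.4 and 31.1 CPM in wild type against 8.63, 6.73 and 8.22 CPM, -1.93 ± 0.12) and IRF9 (-1.14 ± 0.10) were lower. Receptor chains IFNGR1 (0.54 ± 0.07) and IFNGR2 (0.30 ± 0.06), the kinase JAK2 (0.26 ± 0.06) and STAT2 (0.42 ± 0.09) were higher, JAK2 without a call in the 51 libraries alone or with a block by library-name number.

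**Figure D3:**
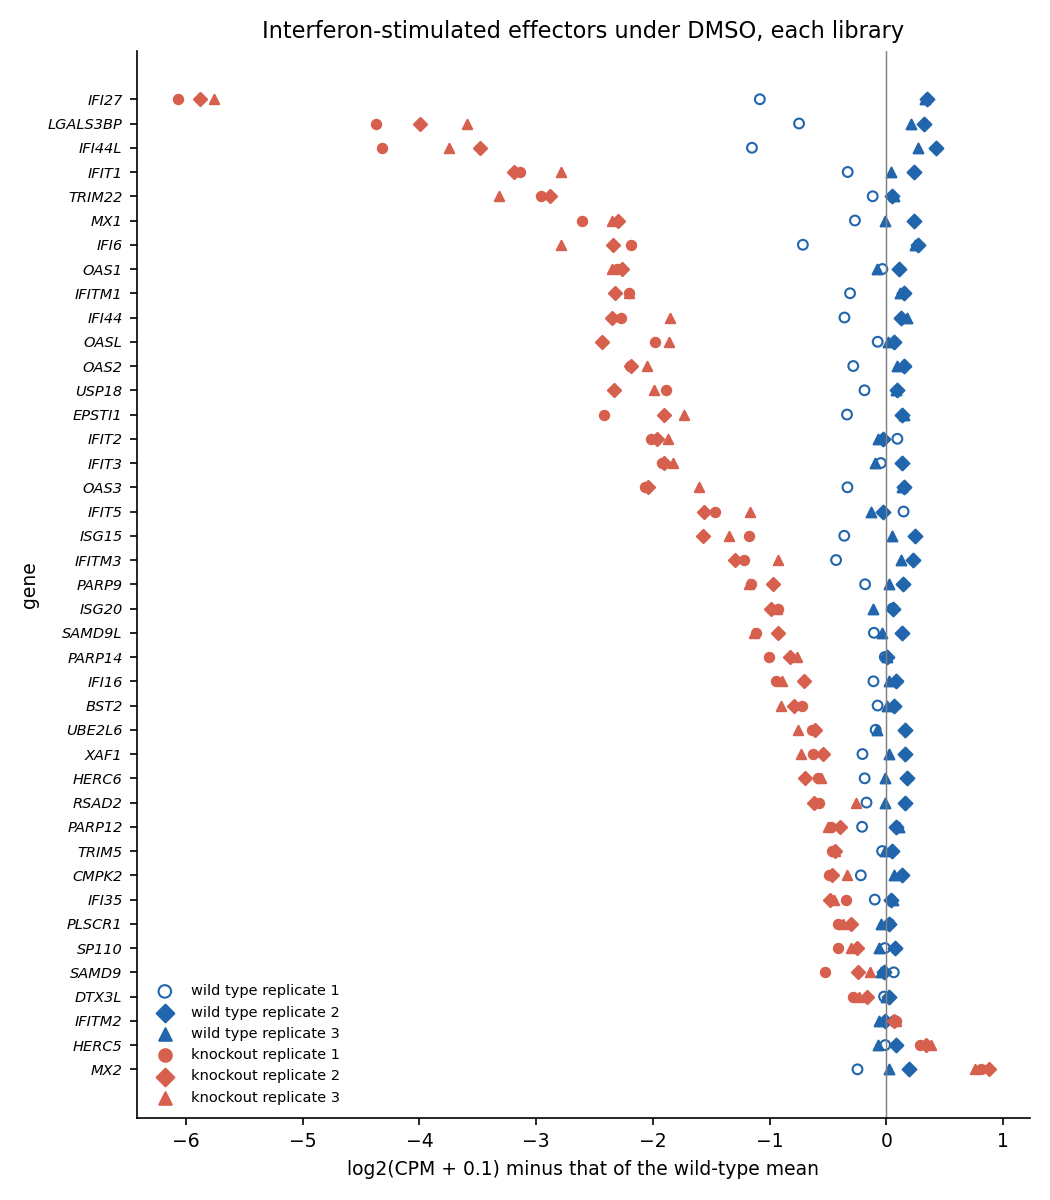
Each of 41 interferon-stimulated effectors in each DMSO library, as log2(CPM + 0.1) minus that of the wild-type mean (blue wild type, with open circles for replicate 1; red knockout). Knockout points lie to the left of the wild-type points for most genes, from IFI27 to those with small falls, and to the right for MX2 and HERC5.

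Genes of antigen presentation were more often higher than lower. Of 16 MHC class I genes, 8 were higher and 3 lower. The heavy chains HLA-B (0.59 ± 0.06) and HLA-C (0.80 ± 0.06) and the peptide loading factor TAPBP (0.56 ± 0.08) were higher, and the peptide transporter subunit TAP2 (-0.43 ± 0.06), an interferon target, was lower. Of 10 MHC class II genes, 6 were higher and 2 lower, with a median of 0.86. Their summed level, led by CD74, overlapped between the groups. It was 303, 279 and 279 CPM in wild-type libraries and 332, 318 and 286 CPM in knockout. Under CC-885, 2 of the 10 were higher and 3 lower, with a median of -0.15. HLA-DRB1 read 52.6, 44 and 40.9 CPM in wild-type libraries and 115, 114 and 95 CPM in knockout (1.23 ± 0.10, adjusted p = 3.9e-08), and HLA-DQB1 read 11.6, 10.5 and 10.6 CPM against 34.1, 31.5 and 29.6 CPM (1.54 ± 0.10, 3.2e-09). Both groups were apart for each. The invariant chain CD74, on chromosome 5 but outside its low windows, was lower (-0.59 ± 0.08, 2.5e-05). HLA genes are near-identical in stretches, and the treatment of reads with several matches is not known from the sources used here.

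Genes of granules and of monocytes were higher. Granulocyte progenitors store proteases and antimicrobial proteins in azurophil granules, and 10 of 14 such genes were higher in knockout and 0 lower (median 1.03). Their summed level was 6542 to 6670 CPM in wild-type libraries and 12712 to 13936 CPM in knockout. RNASE2, an eosinophil-associated ribonuclease, read 195, 214 and 232 CPM in wild-type libraries and 632, 663 and 727 CPM in knockout (1.66 ± 0.17, adjusted p = 1e-05), and its relative RNASE3 read 3.57, 3.54 and 3.19 against 15.5, 15.9 and 14.7 CPM (2.17 ± 0.12, 1.2e-09). The proteoglycan SRGN, which packs granules and lies on chromosome 10, was not called (-0.32 ± 0.17, 0.15), but was called at -0.26 with the DMSO libraries alone.

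Of 27 monocyte and macrophage genes, 16 were higher and 5 lower (median 0.78). S100A9, which pairs with S100A8 in the calcium-binding protein calprotectin, read 32.4, 22 and 23.2 CPM in wild-type libraries and 442, 417 and 328 CPM in knockout (3.94 ± 0.17, adjusted p = 7.5e-09). APOE, a lipid carrier of macrophages, read 1.07, 1.35 and 1.06 CPM against 8.04, 6.73 and 5.58 CPM (2.55 ± 0.17, 7e-09). Both groups were well apart for each gene, with knockout replicate 3 the lowest of its group. The markers of the monocytic line itself rose with these lists, as given above, and their part was not tested.

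Receptors for growth factors and cytokines were mostly higher, with 15 of 23 higher and 2 lower. KIT, the stem cell factor receptor of progenitors and mast cells, read 7.12, 4.79 and 5.7 CPM in wild-type libraries and 57.3, 67.3 and 58 CPM in knockout (3.38 ± 0.18, adjusted p = 7.9e-09). The granulocyte colony-stimulating factor receptor CSF3R read 88.5, 80.7 and 83.5 CPM against 229, 205 and 218 CPM (1.37 ± 0.11, 1.6e-07). CSF1R, the macrophage colony-stimulating factor receptor, stood at 0.87 ± 0.06, the insulin receptor INSR at 1.08 ± 0.07 and FLT3 at 0.52 ± 0.06. None of these groups overlapped. Mast cell markers summed to 25.8 to 34.6 CPM in wild-type libraries and 38.2 to 44.6 CPM in knockout, with CPA3 at 0, and 1 of the 3 tested was higher.

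Integrins were mostly higher: 13 of 19 were higher and 1 lower (median 0.68). ITGAL, the alpha chain of the leukocyte integrin LFA-1, read 118, 98.2 and 109 CPM in wild-type libraries and 509, 529 and 513 CPM in knockout (2.25 ± 0.12, adjusted p = 3.6e-09). Its beta chain ITGB2 read 604, 570.5 and 601 CPM against 1525, 1496 and 1294 CPM (1.28 ± 0.07, 3.1e-10). ITGAM, the alpha chain of the complement receptor and a maturation marker, did not pass the test (-0.02 ± 0.09, 0.90). ITGB1, on chromosome 10, was the member that fell (-0.75 ± 0.07). ICAM1, a ligand of LFA-1, was lower, as given above.

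Signalling components of myeloid receptors went both ways. Of 17 immunoreceptor adaptors and kinases, 6 were higher and 4 lower, with SYK (0.59 ± 0.05), INPP5D (0.60 ± 0.08) and TYROBP (0.68 ± 0.08) higher and BTK (-0.27 ± 0.05) and the inhibitory receptor LILRB2 (-1.22 ± 0.14) lower. Of 30 myeloid transcription factors, 8 were higher and 3 lower, and 5 were higher without wild-type replicate 2. CEBPE, which drives late granulocyte genes, stood at 3.61, 2.76 and 2.81 CPM in wild-type libraries and 12.2, 11 and 13.3 CPM in knockout (1.99 ± 0.15, adjusted p = 2.6e-08). MEF2C (-0.96 ± 0.08; chromosome 5, outside its low windows) and KLF2 (-1.52 ± 0.16; -2.10 in the 52 libraries alone) were lower. In the stem programme of 19 genes, 7 were higher and 5 lower, including SOX4 (-1.27 ± 0.09) and the homeobox gene HOXA10 (-0.27 ± 0.06), which was not called with upper-quartile factors.

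Lysosomal genes were higher, 20 of 29 against 3 lower (median 0.51). The glucosidase GAA, which breaks down glycogen, read 107, 103 and 114 CPM in wild-type libraries and 339, 318 and 294 CPM in knockout (1.56 ± 0.07, adjusted p = 7.4e-11). TPP1, a lysosomal peptidase, read 260.2, 233 and 249.8 CPM against 548, 586 and 575 CPM (1.20 ± 0.08, 9.6e-09), and progranulin, GRN, stood at 1.37 ± 0.11. TFEB, the factor that drives many lysosomal genes, was slightly lower (-0.25 ± 0.07, 0.0077), though not with upper-quartile factors. Proteases and their inhibitors were also mostly higher, 14 of 22 against 4, with CST7, an inhibitor of cathepsins, at 1.67, 1.95 and 1.75 CPM in wild-type libraries and 20.1, 16.8 and 23.2 CPM in knockout (3.48 ± 0.16, 1.3e-10). SLPI (1.97 ± 0.12) and SERPINA1 (2.28 ± 0.16), which inhibit neutrophil elastase, were higher.

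Genes of cholesterol handling were mostly higher, and those of fatty acid synthesis more often lower. Of 23 cholesterol synthesis genes, 14 were higher and 2 lower, among them DHCR7 (0.84 ± 0.07) and SQLE (0.73 ± 0.06), while HMGCS1, on chromosome 5, was lower (-1.15 ± 0.06). Of 14 genes of fatty acid synthesis and desaturation, 2 were higher and 6 lower (median -0.16), with the desaturase FADS2 (0.53 ± 0.09) higher and SCD (-0.64 ± 0.09; chromosome 10) and the elongase ELOVL1 (-0.44 ± 0.07) lower. Of 19 genes of cholesterol efflux and lipid storage, 10 were higher and 4 lower. The efflux pump ABCA1 read 26.7, 26.9 and 29.3 CPM in wild-type libraries and 79.5, 89.3 and 108 CPM in knockout (1.74 ± 0.15, adjusted p = 7.4e-07). PPARG, a nuclear receptor of lipid-handling macrophages, read 4.79, 5.74 and 5.38 CPM against 22.6, 23.5 and 21.9 CPM (2.09 ± 0.09, 3.7e-11), without overlap.

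Genes of growth were more often lower than higher. MYC itself was slightly higher (267, 275 and 277 CPM in wild type against 318, 305 and 321 CPM, 0.20 ± 0.06, adjusted p = 0.014), a call lost with a block by library-name number. Of 35 ribosome biogenesis genes known as MYC targets, 30 were lower and 0 higher (median -0.39), or 20 of 25 outside chromosomes 5, 10 and 12. The largest falls were on those chromosomes: DDX21, a helicase of rRNA processing, read 301, 368 and 371 CPM in wild-type libraries and 96.4, 123 and 119 CPM in knockout (-1.62 ± 0.11, 2.1e-08). The MYC element CACGTG was in a promoter of 4 of 29 matched genes of the list (13.8%), against 11.0% of all tested genes matched.

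Of 76 mitochondrial ribosomal proteins, 37 were lower and 0 higher (28 and 3 with upper-quartile factors), but of 84 cytosolic ones 9 and 0. The cytosolic result moved with the libraries used, and 20 were lower without wild-type CC-885 replicate 3. Their median was -0.15 in the 51 libraries alone and 0.04 in the 52 libraries alone, so no direction is given for them. Of 14 host transcripts of small nucleolar RNAs, 13 were lower (median -0.67). Replication genes (14 of 34 lower, 2 higher) and mitosis genes (15 of 30 lower, 0 higher) had medians of -0.13 and -0.25. With upper-quartile factors only 6 and 7 were lower, and without wild-type replicate 1 the mitosis count was 9. MKI67 (-1.13 ± 0.09), CDK1 (-1.23 ± 0.25) and KIF11 (-1.26 ± 0.09) are on chromosome 10. The cell cycle kinase CDK6 read 349.6, 355 and 334 CPM in wild-type libraries and 188, 201 and 272 CPM in knockout (-0.65 ± 0.11, adjusted p = 0.00014), without overlap.

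Chaperones split by compartment. Of 20 heat shock chaperones of the cytosol and mitochondria, 14 were lower and 1 higher (median -0.49), and their summed level was 11294 to 11381 CPM in wild-type libraries and 7008 to 8023 CPM in knockout. The chaperonin HSPD1 read 938, 974 and 923 CPM against 523, 611 and 529.8 CPM (-0.77 ± 0.07, adjusted p = 1.8e-07), and the co-chaperone BAG3, on chromosome 10, stood at -1.39 ± 0.08. Of 22 ER chaperones and unfolded protein response genes, 12 were higher and 3 lower, with the disulfide isomerase PDIA6 at 379, 403 and 377 CPM in wild-type libraries and 657, 703 and 670.3 CPM in knockout (0.81 ± 0.05, 3.9e-09). The 3 lower genes were not called with upper-quartile factors. Proteasome subunits were lower in 22 of 37 cases and higher in 0 (median -0.22), or 8 and 2 with upper-quartile factors.

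Stress and death genes went both ways. Of 32 genes of the integrated stress response, 15 were lower and 7 higher, or 11 and 6 of 25 outside chromosomes 5, 10 and 12. The lower ones included the asparagine synthetase ASNS (24.3, 29.8 and 30.2 CPM in wild type against 13, 12.9 and 12.5 CPM, -1.13 ± 0.08) and the cystine transporter SLC7A11 (-1.83 ± 0.20). NRF2 targets were lower in 14 of 24 cases and higher in 5. Outside chromosomes 5, 10 and 12, 9 of 19 were lower and 5 higher, with a median of -0.11. The summed level of the 24 overlapped between the groups, at 5145, 4932 and 4903 CPM in wild-type libraries and 5192.5, 5100.5 and 4529 CPM in knockout. NQO1, a quinone reductase, read 44.8, 51 and 54.5 against 18.9, 20.0 and 21.1 CPM (-1.32 ± 0.13, adjusted p = 5.9e-07). NFE2L2, which encodes NRF2, was not called (0.04 ± 0.07). Of 22 p53 target genes, 12 were higher and 4 lower. THP-1 is known to lack functional p53. GADD45A read 18.8, 16.7 and 17.1 CPM in wild-type libraries and 46.2, 47.4 and 42.5 CPM in knockout (1.37 ± 0.07, 3.8e-10). In the BCL2 family, 5 of 16 were higher and 6 lower: the pro-death members BMF (1.32 ± 0.12) and BCL2L11 (0.66 ± 0.07) rose, and BID (-0.97 ± 0.11) and BAK1 (-0.66 ± 0.06) fell.

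**Figure D4:**
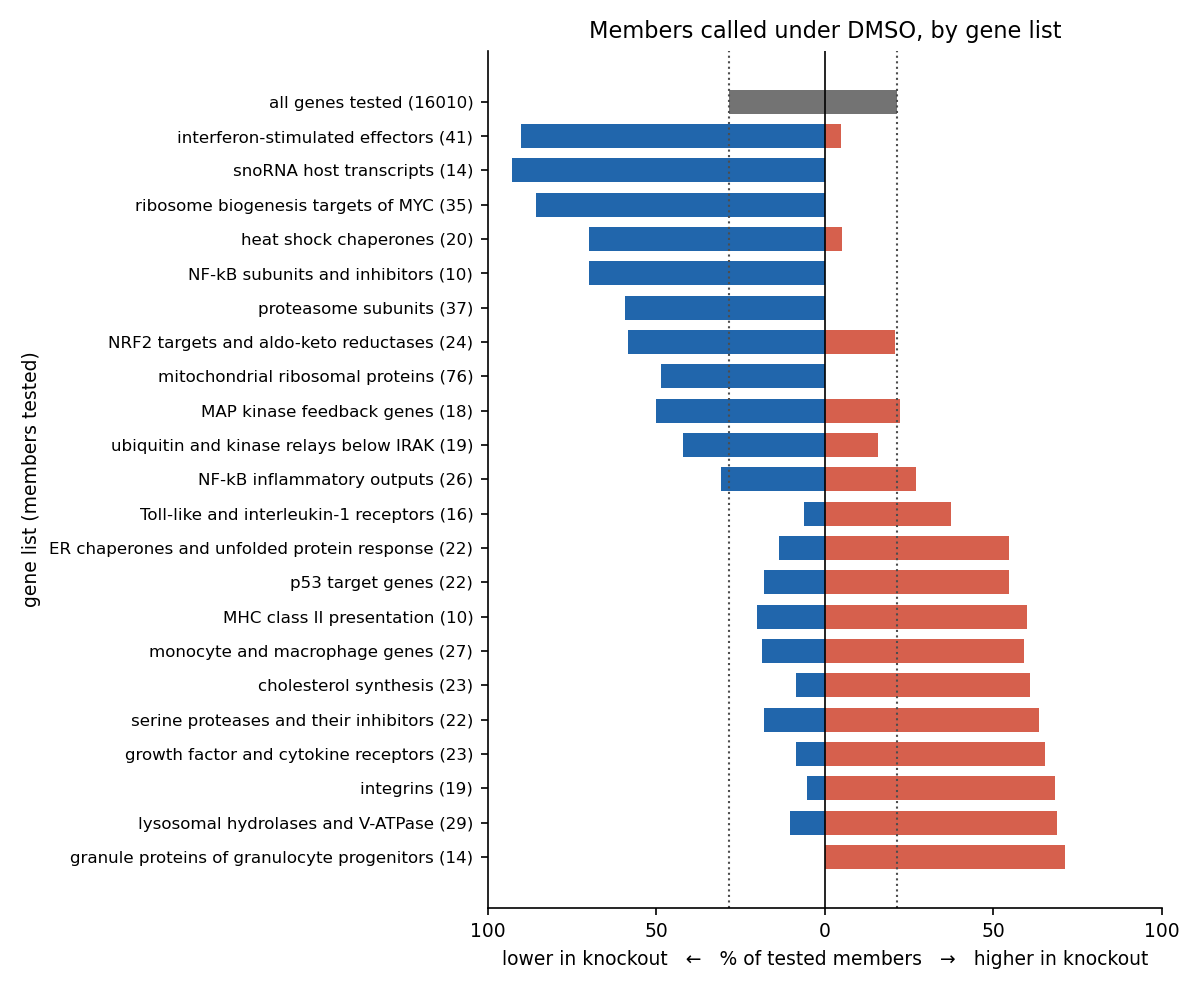
Share of tested members called higher (red, right) or lower (blue, left) in knockout under DMSO for 22 gene lists, with the number tested in brackets; grey bars and dotted lines give all 16010 genes (21.3% higher, 28.4% lower). Among the lists drawn, interferon effectors, small nucleolar RNA hosts and ribosome biogenesis genes reach furthest left, and granule genes, lysosomal genes and integrins furthest right.

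Some transcripts had counts in 1 genotype only. PDE9A, a cyclic GMP phosphodiesterase, had 0 counts in wild type and 293, 332 and 278 in knockout, a rise of at least 301-fold with the wild-type group set at its floor of 3 counts. The metalloprotease ADAMTS9 had 584 counts over the wild-type libraries and 0 in knockout, at least 195-fold lower. BEX5 (431 against 0), GYPE (356), SH3BP4 (270) and the neural adhesion gene CNTN1 (255; chromosome 12) were at 0 in knockout in the same way, and ZBED6CL (199 in knockout) at 0 in wild type. The last 6 were chosen after their values were seen.

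Other large rises were of LSP1, a leukocyte actin-binding protein, at 7.76, 5.16 and 4.47 CPM in wild-type libraries and 109, 101 and 52.8 CPM in knockout (3.92 ± 0.29, adjusted p = 2e-06), with knockout replicate 3 the lowest. CYP27A1, the sterol 27-hydroxylase, read 0.321, 0.282 and 0.343 CPM against 6.8, 5.47 and 5.16 CPM (4.19 ± 0.20, 1.4e-10). The transcription factor BHLHE22 reached 184, 189 and 211 CPM from 1.48, 3.14 and 2.56 CPM (6.34 ± 0.18, 1.1e-10), the highest level among the 12 largest rises after S100A9. Other members of that rule were KRT17 (6.33 ± 0.32), WIPF3 (5.43 ± 0.19), IGSF9 (5.08 ± 0.15), TMEM176B (4.87 ± 0.24), S100A8 (3.76 ± 0.18), SLC2A10 (3.70 ± 0.19) and CCDC120 (3.49 ± 0.18). TMEM176B stood at 4.20 in the 51 libraries alone and BHLHE22 at 6.98.

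Among the falls, UNC13D, a priming factor for granule release, read 64.5, 59.3 and 65.1 CPM in wild-type libraries and 1.66, 1.24 and 0.973 CPM in knockout (-5.61 ± 0.16, adjusted p = 2e-12). The RAC exchange factor TIAM1 read 6.52, 7.19 and 7.47 CPM against 0.200, 0.122 and 0.0596 CPM (-5.77 ± 0.24, 3.6e-11). The ketosteroid reductases AKR1C1 (-7.49 ± 0.50) and AKR1C2 (-5.50 ± 0.33) lie side by side on chromosome 10 and are near-identical, so reads may have been split between them. CXorf57, FIGN, ALX1, COL4A5, PAWR and HMX3 stood at -7.61, -7.15, -6.96, -6.74, -6.73 and -4.31 on the log2 scale. In knockout these had 0 to 24 counts a library, and their folds rest on those few counts. CXorf57 stood at -8.46 and FIGN at -7.78 without knockout replicate 2, ALX1 at -8.06 without replicate 1, and COL4A5 at -6.11 and -8.07 without replicates 2 and 3. In the 52 libraries alone CXorf57 stood at -8.38, ALX1 at -7.84, COL4A5 at -5.47 and TIAM1 at -6.81.

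By amount of RNA rather than by fold, the 6 largest rises of at least 1.5-fold were of granule proteins, the integrin chain ITGB2 given above and a lysosomal thioesterase. PPT1, the thioesterase, read 3829, 3646 and 3558 CPM in wild-type libraries and 6318, 6967 and 6063 CPM in knockout (0.81 ± 0.06, adjusted p = 3.6e-08). AZU1, the antimicrobial azurocidin, read 1037, 927 and 927 CPM against 4315, 3703 and 3817 CPM (2.03 ± 0.10, 2.3e-10), and CTSG (1.59 ± 0.07), PRTN3 (1.19 ± 0.08) and ELANE (1.04 ± 0.07) followed. The 6 largest falls were of RNR2 (-1.03 ± 0.06), the chaperones HSP90AB1 (-0.73 ± 0.07) and HSPA8 (-0.71 ± 0.09), the ribosomal proteins RPL37 (-1.04 ± 0.16; chromosome 5) and RPS24 (-0.92 ± 0.22; chromosome 10), and the chaperonin subunit CCT5 (-1.59 ± 0.06; chromosome 5). HSP90AB1 read 2711, 2917 and 2871 CPM in wild-type libraries and 1702, 1802 and 1627 CPM in knockout. No group overlapped among these 12 genes.

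Collagen genes were more often higher than lower, but their summed level, led by COL9A2, overlapped between the groups. It was 1320, 1166 and 1239 CPM in wild-type libraries and 1287, 1171 and 1209.5 CPM in knockout. Under CC-885, 6 of the 23 were higher and 6 lower, with a median of -0.01. Of 23 collagen genes tested, 15 were higher and 3 lower (median 0.71), with COL4A2 at 1.95, 1.71 and 2.49 CPM in wild-type libraries and 5.9, 6.03 and 6.26 CPM in knockout (1.56 ± 0.14, adjusted p = 1.6e-07) and COL27A1 at 23.9, 26.9 and 31.8 against 2.7, 2.59 and 3.02 CPM (-3.32 ± 0.13, 3.3e-11). Markers of epithelial, stromal and endothelial cells summed to 269 to 305 CPM in wild-type libraries and 415 to 463 CPM in knockout, led by PECAM1, which monocytes express; KRT19, COL1A2, COL3A1, DCN and CDH5 were at 0. Their part in the collagen counts was not tested.

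Of 46 cadherins and protocadherins, 19 were lower and 9 higher, most of them in the protocadherin clusters of chromosome 5, whose members share exons. CDH2, N-cadherin, read 14.1, 12.2 and 13.6 CPM against 2.00, 2.95 and 2.94 CPM (-2.33 ± 0.13, adjusted p = 1.1e-09). Semaphorins, plexins and guidance receptors were split, 8 of 22 higher and 10 lower, with PLXND1 (1.17 ± 0.08) higher and EPHB4 (-2.36 ± 0.12) lower. Of 471 ZNF genes, 165 were lower and 59 higher, but 102 and 96 with upper-quartile factors. Of 244 solute carriers 67 were lower and 65 higher. HOXB6 fell from 5.79, 5.68 and 5.83 CPM to 0.600, 0.682 and 0.457 CPM (-3.30 ± 0.20, 2.8e-09).

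The 6 CC-885 libraries gave the genotype difference a second time, in other libraries of the same cells and under a drug that itself changes many genes. Wild-type CC-885 replicate 3 stood apart: its chi-square per degree of freedom against its group mates was 76.1 and 62.3, against 5.06 between those mates, and it is the only one of the 6 with a 52 prefix. Under CC-885, 4453 genes (27.8%) were higher in knockout and 4931 (30.8%) lower. Of the genes higher under DMSO, 2005 were higher again, or 58.7% of the DMSO list and 45.0% of the CC-885 list. Of those lower, 2776 were lower again, or 61.1% and 56.3%. Opposite calls numbered 281 and 547. Without wild-type CC-885 replicate 3, 2137 and 3058 genes were called the same way and 424 and 780 the opposite way. Among genes at least 2-fold different under DMSO, 775 of 1131 rises and 920 of 1069 falls were called the same way, and 22 and 8 the other way. The difference between the treatments was itself called for 34.7% of all genes, or 42.9% without that library.

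The low chromosomes were low here too, with a chromosome 10 median of -0.91 and a chromosome 5 median of -0.27. All 41 interferon effectors were lower in knockout under CC-885, with a median of -2.83. Their summed level was 2279, 2378 and 3479 CPM in the wild-type and 501, 513 and 509 CPM in the knockout libraries, with wild-type replicate 3 the highest, and without it all 41 were lower and the median was -2.60. They include MX2 (-2.54 ± 0.17) and HERC5 (-0.68 ± 0.10), which were higher under DMSO, and the change of MX2 (-3.35 ± 0.24, adjusted p = 2.4e-06) and of HERC5 (-1.02 ± 0.13, 3.7e-05) was called. CSF1R also turned, from 0.87 ± 0.06 under DMSO to -0.55 ± 0.06 under CC-885 (change -1.42 ± 0.08, 2.5e-08). These 3 were chosen after their values were seen. Granule genes were higher in 8 of 14 cases and lower in 2, lysosomal genes higher in 23 of 29, and NF-kB subunits split, 4 higher and 3 lower of 10.

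IRAK4, the 24 genes with the largest folds and the 12 with the largest changes in CPM made 37 genes. A difference in size between treatments was called for 14 of the 37, against 34.7% of all genes tested. Under CC-885, 36 of the 37 were called in the same direction as under DMSO. RNR2 was the exception, at -1.03 ± 0.06 under DMSO and -0.04 ± 0.06 without a call under CC-885. The IRAK4 gap was smaller, -1.25 ± 0.09 under CC-885 against -2.66 ± 0.10 under DMSO (adjusted p = 1.9e-06). KRT17, SLC2A10 and TMEM176B rose less, and BHLHE22 rose more. Apart from IRAK4, the 37 were chosen by their DMSO values, which leans toward smaller differences under CC-885. UNC13D, S100A9, CYP27A1 and LSP1 differed by -0.64 to 0.06 with no call.

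**Figure D5:**
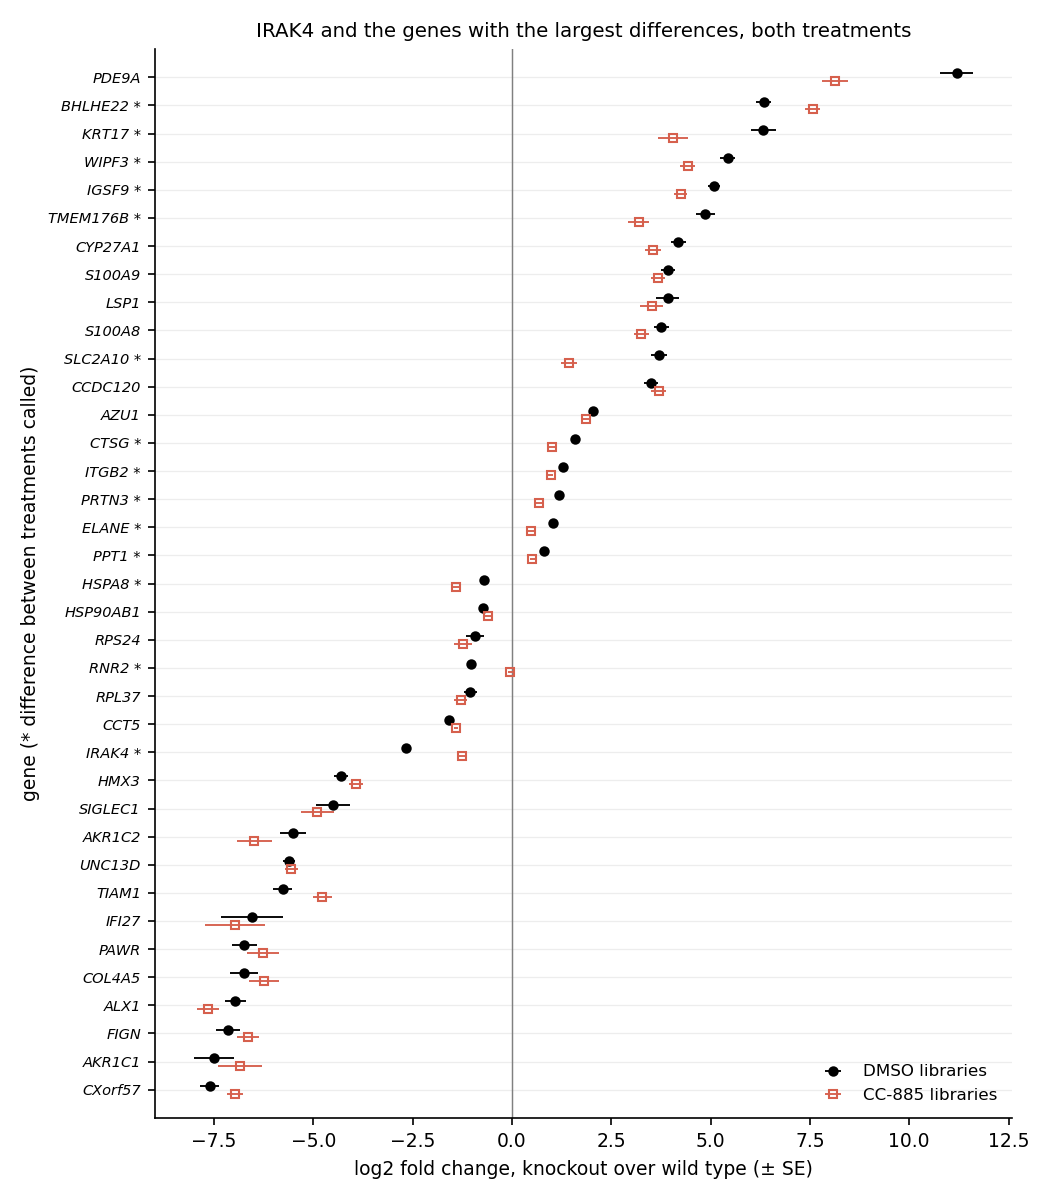
Log2 fold change ± SE (knockout over wild type) of IRAK4, the 12 largest rises and falls and the 12 largest changes in CPM, under DMSO (black circles) and under CC-885 (open squares); asterisks mark genes whose difference between treatments was called. The points of a gene lie on the same side of 0, with RNR2 close to 0 under CC-885, and KRT17, SLC2A10, TMEM176B and IRAK4 are among the marked genes with wide steps between treatments.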

How the data were processed

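PolyA RNA of 12 THP-1 libraries was sequenced as 100-base paired ends, per the labels' protocols. The authors deposited a table of raw read counts per gene symbol. The submitters' processing notes name FastQC 0.11.2, HISAT2 2.0.5, featureCounts 1.5.2 and GRCh38, while a label protocol names FastQC v0.11.7 and mouse mm10. The symbols are human. No source used here gives the strand setting or the treatment of reads with several matches, so overlapping, antisense and near-identical genes are uncertain. The cell line tag of some samples numbers the line onward from THP1, and the titles were followed.

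Of 30017 symbols, 7380 had no count. filterByExpr by group kept 16010 genes, which held 99.98% of counts. All 12 libraries entered 1 edgeR 4.0.16 fit (R 4.3.3; TMM factors, robust quasi-likelihood, 1 coefficient for each of 4 groups). The contrasts were knockout against wild type under DMSO, the same under CC-885, and their difference. SE is the absolute log2 fold change over the square root of F, and a call is a Benjamini-Hochberg adjusted p under 0.05 over all genes tested. CPM values use TMM-scaled library sizes, except summed levels of markers, which use library totals. On simulated counts, 88% of 1.5-fold and 100% of 2-fold changes were recovered (50 genes each). The changed genes had at least 5 CPM, 15810 of 16010 genes were left unchanged, and all groups had wild-type DMSO levels. The recovery therefore does not cover genes below 5 CPM or data in which 49.7% of genes differ.

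Members and the 56 gene lists were chosen with earlier results of these data known, so list counts and medians are descriptions. Genes named are IRAK4, its receptor and kinase lists, the 12 largest called log2 fold changes each way (at least 5 CPM in the higher group, groups apart), the 6 largest changes in CPM each way (at least 1.5-fold), up to 4 called genes each way of a list or 3 of an extreme window at 5 CPM, and uncalled members where a list has 5 or fewer. Other genes are named after their values were seen. Positions are from RefSeq GRCh38.p14.

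Same-numbered titles deviated together weakly across the genotypes (correlations 0.233, 0.137 and 0.196, other pairs -0.22 to 0.099). Titles numbered 1 and titles numbered 3 also share a library-name prefix. The labels state no pairing, so whether libraries are paired is not settled, and the main fit uses no pairing. Alternatives were DESeq2 1.42.0, other scalings, filters and thresholds, the DMSO libraries alone, replicate blocks, the library-name prefix, and leaving out each library. Fits in the 52-prefix libraries alone and counts without chromosomes 5, 10 and 12 were added after seeing the data.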

Additional observations from a re-analysis of the deposited data

Results flagged for a closer look

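Of 40 genes whose genotype difference was compared between treatments (IRAK4, the genes with the largest changes, and MX2, HERC5 and CSF1R, which were chosen after their values were seen), 17 had a difference between CC-885 and DMSO that was called at an adjusted p under 0.05 (edgeR quasi-likelihood test, over all genes tested). Over all 16010 genes tested, the same difference was called for 34.7%, and the count of 17 is to be read against that share. The values below are the log2 fold change of knockout over wild type under CC-885 minus that under DMSO. IRAK4 itself differed by 1.41, its gap being narrower under the drug. MX2 differed by -3.35, HERC5 by -1.02 and CSF1R by -1.42, and all 3 were higher in knockout under DMSO and lower under CC-885. The genes with the largest changes were chosen by their DMSO values, and the same values enter this difference. Such a choice leans toward a smaller change under CC-885, and its part was not tested. The rise was smaller under CC-885 for KRT17 (-2.28), SLC2A10 (-2.26), TMEM176B (-1.68), WIPF3 (-1.01) and IGSF9 (-0.83). It was smaller too for the granule protease genes CTSG (-0.58), ELANE (-0.56) and PRTN3 (-0.51), for the integrin chain ITGB2 (-0.31) and for the thioesterase gene PPT1 (-0.30). BHLHE22 rose further, by 1.24. Among the falls, HSPA8 was lower still by -0.69. RNR2 differed by 0.99, from -1.03 under DMSO to -0.04 without a call under CC-885. Without wild-type CC-885 replicate 3, which stood apart from its group, 17 of the 40 were called again, with AZU1 (-0.28) in and WIPF3 (-0.90) out. The share over all genes was then 42.9%.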

How the results depend on the processing

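The counts of higher, lower and shared genes and the IRAK4 value stayed within 1.5 times of their values and on the same side of the threshold under each alternative that was run, except that 549 genes in place of 1069 were at least 2-fold lower when chromosomes 5, 10 and 12 were left out. Leaving out each DMSO library gave 2926 to 3209 higher and 3837 to 4275 lower genes, 1031 to 1135 and 1006 to 1082 at the 2-fold limit, 4265 to 4547 genes called the same way under CC-885, and IRAK4 at -2.70 to -2.57. DESeq2 called 3658 higher and 4207 lower. With the replicate block by title number, 3433 genes were higher and 4561 lower, and none of the 176 named genes that were tested changed its call. With a block by library-name number, 2752 were higher and 3714 lower. Of these 176 genes, 153 kept direction and call in all 20 settings. TLR3 stood at 0.00 in the 51 libraries alone, where all 3 DMSO libraries had 0 counts of it, so that it has no direction there. The count shared with CC-885 could not be had for the DMSO libraries alone or the 52 libraries alone. Windows of 5 Mb put 205 Mb, and a minimum of 20 genes 220 Mb, at a median of -0.5 or lower, against 250 Mb. Genes with few counts, such as TLR3, limit what can be read at this depth.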
